A study of Mus musculus with 70 samples.

Results

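The 9 genes compared here belong to the cellular response to interferon gamma, and were followed in B16F10 melanomas after histotripsy. They are the guanylate-binding protein genes Gbp2, Gbp3, Gbp5 and Gbp7, the immunity-related GTPase genes Irgm1, Igtp and Iigp1, the transcription factor gene Irf1, and Ido1, which encodes indoleamine 2,3-dioxygenase. They were taken by symbol from the count tables, as 9 of 55487 gene lines. B16F10 is a mouse melanoma cell line, and the tumors grew under the skin of both flanks of young adult male and female C57BL/6 mice. Control mice had a sham procedure. In the others 1 tumor was partly ablated by histotripsy, in which focused ultrasound breaks tissue mechanically without heating it, and the opposite untreated tumor is called histotripsy-abscopal. Tumors were taken 3 or 7 days later, and viable cells were sorted into a CD45+ fraction, the blood-derived cells, and a CD45- fraction. On day 3 the CD45+ fraction gave 4 control, 6 histotripsy-treated and 7 histotripsy-abscopal libraries, and the CD45- fraction 4, 7 and 7 in the same order. On day 7 these were 10, 3 and 4 (CD45+) and 11, 3 and 4 (CD45-). The labels do not say which libraries came from the same animal, nor the sex of the animal, so p-values measure the spread between these libraries.

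Interferon gamma is released mainly by T cells and NK cells. It binds a receptor made of Ifngr1 and Ifngr2, and the kinases Jak1 and Jak2 then pass the signal on. It reaches gamma-activated sites (GAS) in promoters and induces IRF1, which acts with other factors on interferon-stimulated response elements (ISRE). Guanylate-binding proteins and immunity-related GTPases are large GTPases that coat and disrupt the vacuoles of intracellular microbes, and Irgm1 and Igtp (Irgm3) are regulators that keep the effector GTPases off the cell's own membranes. Ido1 degrades tryptophan to kynurenine and limits T cells. In tumors these genes are read as a trace of interferon gamma acting on a cell. Type I interferons induce many of them as well.

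Libraries held 887798 to 3820705 counts. The fractions carried the markers of their labels: the summed level of 4 leukocyte genes (Ptprc, Cd52, Coro1a, Laptm5) was 2745 to 4234 CPM (counts scaled to a common library total) in CD45+ libraries and at most 1.48 CPM in CD45- libraries. The summed level of 7 melanoma genes was 23402 to 36892 CPM in CD45- libraries. It was 91.5 to 2278 CPM in CD45+ libraries, with the highest value in day 3 histotripsy-abscopal replicate 4. The CD45- fraction also held fibroblast transcripts, whose 5 markers summed to 13.3 CPM in the lowest library and 13237.5 CPM in the highest. QuantSeq counts the 3′ end of each transcript, so a count does not scale with length, and levels of different genes are not compared here. In these bulk sorted fractions a lower share of expressing cells and less RNA per cell cannot be told apart.

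The members for which sequence is shown lie on 2 chromosomes (GENCODE annotation of GRCm38). Gbp5, Gbp7, Gbp3 and Gbp2 form a row on the plus strand of chromosome 3, at chr3:142493978-142522344, chr3:142530342-142550149, chr3:142560026-142573209 and chr3:142620602-142638008. Chromosome 11 holds Irgm1 at chr11:48861968-48871683 on the minus strand, Irf1 at chr11:53770014-53778374 on the plus strand and Igtp at chr11:58199556-58207591 on the plus strand. Exons of Igtp overlap those of Irgm2 on the same strand, and exons of Gbp7 those of Gm43802. Exons of Gbp2 and Irf1 overlap Mir6381 and Gm17334 on the opposite strand. The strand setting of the counting is not given in the sources used here, so counts in these overlaps are uncertain.

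Promoter sequence is shown for the members that RefSeq's table of GRCm38.p6 holds, because the members varied together across libraries. Each promoter shown carries a match to at least 1 of the 2 elements named above. The table gives 250 bases before and 50 after a start, and 7 of the 9 members had an entry. The ISRE-like motif searched was GAAANNGAAA and the GAS-like motif TTCNNNGAA, both on both strands. The 2 patterns can overlap each other. Capitals mark a match, and each line reads 5′ to 3′ on the strand of the gene.
Gbp2, chr3:142620594-142620623, plus strand: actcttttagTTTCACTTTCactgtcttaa
Gbp3, chr3:142559995-142560024, plus strand: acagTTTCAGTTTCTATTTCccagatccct
Gbp5, chr3:142496759-142496868, plus strand: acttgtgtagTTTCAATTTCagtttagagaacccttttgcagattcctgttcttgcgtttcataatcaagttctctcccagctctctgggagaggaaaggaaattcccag
Gbp7, chr3:142530226-142530335, plus strand: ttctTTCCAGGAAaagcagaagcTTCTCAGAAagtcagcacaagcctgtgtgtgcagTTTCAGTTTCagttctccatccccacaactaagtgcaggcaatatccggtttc
Irf1, chr11:53769904-53770013, plus strand: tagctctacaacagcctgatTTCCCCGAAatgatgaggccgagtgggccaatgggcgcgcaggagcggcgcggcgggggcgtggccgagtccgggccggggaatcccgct
Irgm1, chr11:48871425-48871454, minus strand: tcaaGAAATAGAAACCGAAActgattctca
Igtp, chr11:58199446-58199555, plus strand: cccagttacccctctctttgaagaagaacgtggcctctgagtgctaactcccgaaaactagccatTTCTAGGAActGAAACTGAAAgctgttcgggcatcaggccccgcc
The ISRE-like motif was in 6 of the 7 promoters and the GAS-like motif in 4 of them. Over all 32851 promoters of the table the ISRE-like motif was in 3.44%, the GAS-like motif in 8.3% and either motif in 11.3%. All 7 members shown held at least 1 of the motifs. Irf1 held a GAS-like match alone, which began 90 bases before its start. Gbp2, Gbp3 and Irgm1 held ISRE-like matches alone, and in Gbp3 and Irgm1 a pair of them overlapped. Gbp5, Gbp7 and Igtp held both motifs, and the GAS-like matches of Gbp5, which began 245 and 52 bases before its start, lie outside the stretch shown.

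The first comparison asked in which fraction of the tumor the genes were read. All 4 guanylate-binding protein genes and Irf1 were higher in CD45+ than in CD45- cells, in each treatment group on both days. The gap was largest for Gbp5, at 16.7-fold to 39.9-fold, and next for Irf1, at 8.62-fold to 13.2-fold. Among the members, the immunity-related GTPase genes passed in fewer groups, and the families were not tested against each other. Irgm1 and Iigp1 had overlapping ranges in the fractions and passed the test in no group, and Igtp passed it in 2 of 6 groups. With the replicate number as a block, which pairs same-numbered libraries of the fractions, all 8 members passed in day 7 histotripsy-treated tumors (Irgm1 0.86, adjusted p = 0.0318, and Iigp1 1.13, adjusted p = 0.0218, edgeR). Of all genes 34.6% were called higher in CD45+ cells there with the block. Iigp1 also passed in day 7 controls (0.77, adjusted p = 0.00331). The labels tie no library to a tumor, and the fractions of day 7 controls hold unequal numbers of libraries. Same-numbered libraries there may thus not be of the same tumor. Ido1 was hardly detected at all.

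**Figure D1:**
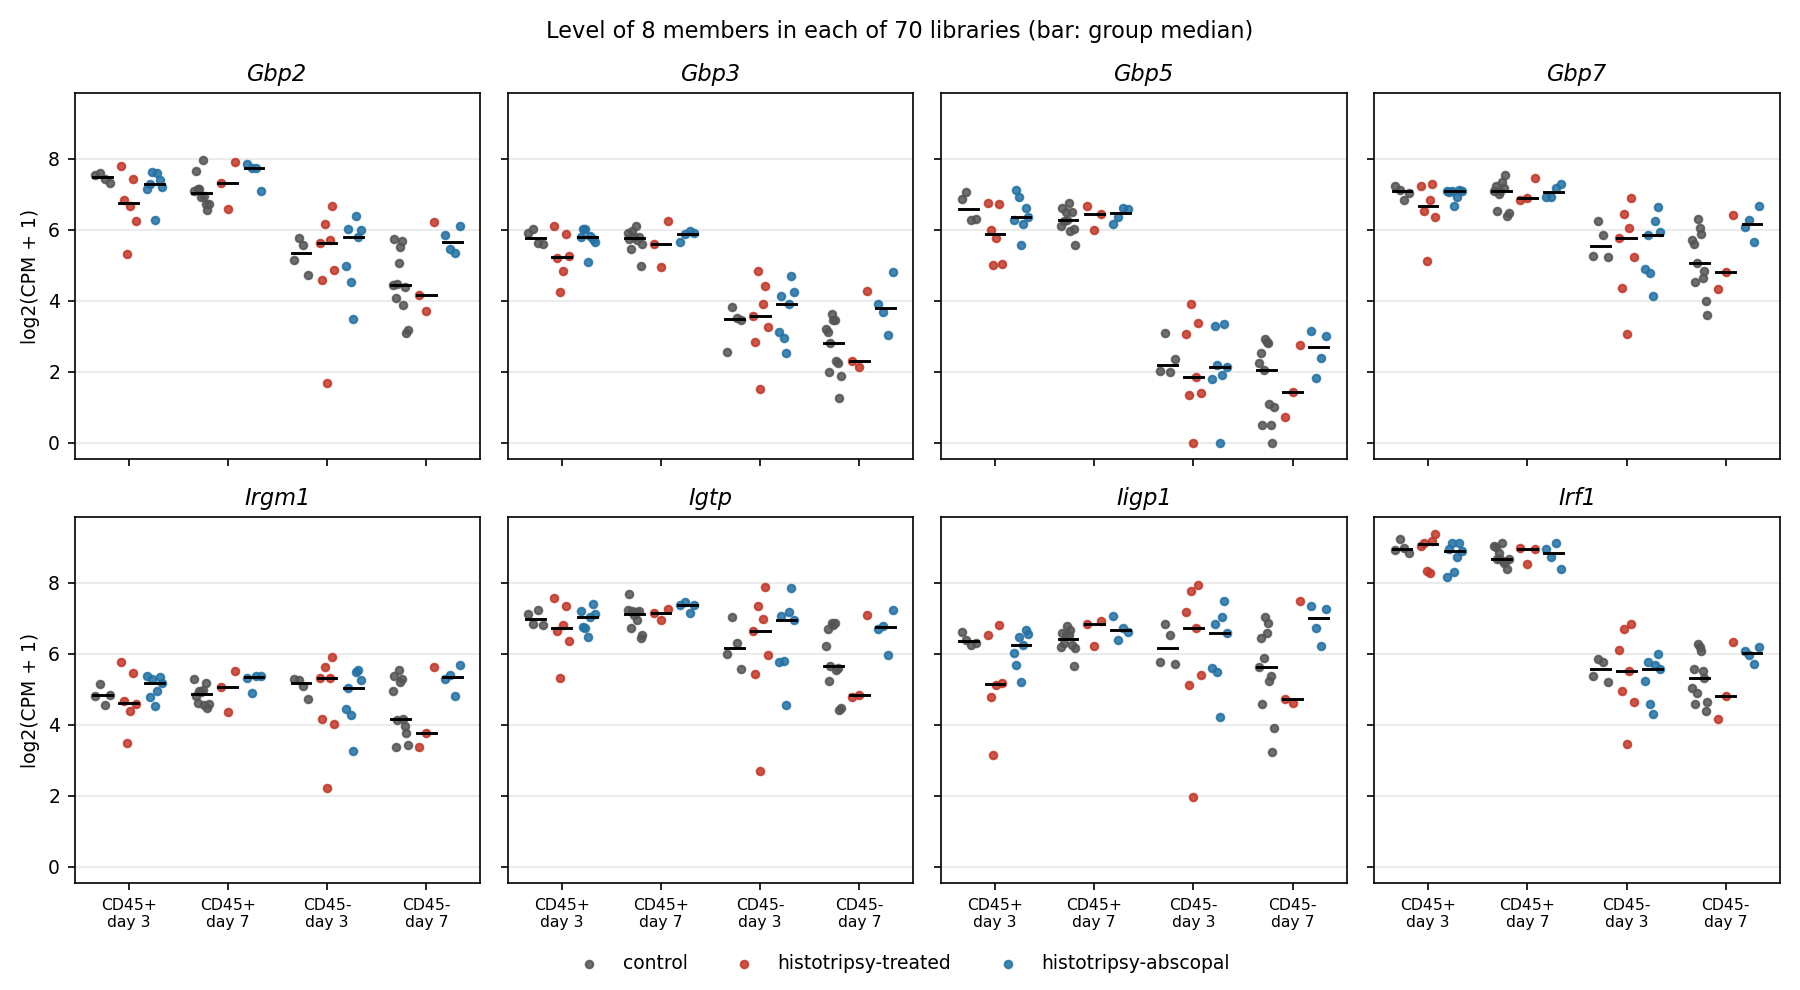
Levels of the 8 tested members in every library, as log2(CPM + 1) on the vertical axis, by fraction, day and treatment group, with a bar at each group's median. In each group the CD45+ points of Gbp5 and Irf1 lie above all the CD45- points, and the points of Irgm1 and Iigp1 overlap between the fractions.

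Gbp5, a guanylate-binding protein linked to inflammasome activation, read 115, 134, 77.2 and 77.6 CPM in the 4 CD45+ control libraries of day 3. In the 4 CD45- control libraries it read 3.08, 7.51, 3.02 and 4.16 CPM. The lowest CD45+ value was thus far above the highest CD45- value, and the ranges were apart in all 6 groups. The log2 difference was 4.65 (95% interval 3.54 to 5.76) in day 3 controls and 4.79 (4.28 to 5.31) in day 7 controls, with adjusted p = 5.36e-09 and 1.75e-19 (edgeR quasi-likelihood test, Benjamini-Hochberg).

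Irf1, a transcription factor induced early in the response, read 485, 594, 498 and 455 CPM in CD45+ controls of day 3. It read 40.7, 56.8, 53.9 and 35.8 CPM in the CD45- controls. Its ranges did not overlap in any of the 6 groups. Over all libraries it spanned 285 to 661 CPM in CD45+ cells, a 2.32-fold range, and 9.88 to 114 CPM in CD45- cells, an 11.5-fold range. The log2 difference was 3.62 (2.76 to 4.48) in day 3 controls and lowest, 3.11 (2.45 to 3.77), in day 7 histotripsy-abscopal tumors.

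Gbp2 read 185, 193, 171 and 158 CPM in CD45+ controls of day 3 and 34.6, 54.0, 46.1 and 25.4 CPM in CD45- controls. Gbp3 read 58.7, 64.0, 48.4 and 47.4 CPM against 4.94, 13.1, 10.3 and 9.98 CPM. Gbp7 read 150, 139, 113 and 131 CPM against 37.0, 74.7, 56.4 and 36.6 CPM. In these controls the CD45+ libraries stood above the CD45- libraries for all of these genes. Over the 6 groups the ranges were apart in 5 for Gbp3, 5 for Gbp7 and 4 for Gbp2. Ranges of all other genes were not compared in this way, and most genes passed the test between the fractions. The log2 differences were 1.75 to 2.64 for Gbp2, 2.05 to 3.27 for Gbp3 and 1.16 to 1.93 for Gbp7, and all passed the test (highest adjusted p = 0.00882, edgeR, for Gbp7 in day 7 histotripsy-abscopal tumors).

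Irgm1, the regulator of the immunity-related GTPases, read 26.9, 34.2, 22.2 and 27.8 CPM in CD45+ controls of day 3. It read 38.3, 37.6, 32.7 and 25.4 CPM in CD45- controls, so the ranges overlapped. Its log2 difference between fractions was -0.079 (-0.98 to 0.82) in these controls and 0.79 (-0.13 to 1.71) at its highest, in day 7 histotripsy-treated tumors. None of the 6 differences passed the test (adjusted p = 0.139 to 0.891, edgeR).

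Iigp1 (chr18:60376027-60392634, plus strand), an effector GTPase of the same family, read 96.2, 83.2, 74.6 and 78.0 CPM in CD45+ controls of day 3 and 53.7, 114, 91.8 and 50.8 CPM in CD45- controls. It was the 1 member whose point estimate was clearly lower in CD45+ cells in any group, with a log2 difference of -0.80 (-1.83 to 0.23, adjusted p = 0.161, edgeR) in day 3 histotripsy-treated tumors. That difference passed the test when CD45- histotripsy-treated replicate 4 was left out (-1.02, adjusted p = 0.0398) or library totals replaced the TMM factors (-1.15, adjusted p = 0.0484). In day 7 controls it was 0.69 (0.052 to 1.32, adjusted p = 0.0505), and leaving out any 1 of 6 libraries there brought it past the threshold, at 0.72 to 0.88.

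Igtp (Irgm3), a second regulator, read 137, 112, 150 and 111 CPM in CD45+ controls of day 3 and 62.3, 129, 78.4 and 46.2 CPM in CD45- controls. These ranges overlapped, as they did in every other group. Its log2 difference was 1.19 (0.67 to 1.7, adjusted p = 0.000107, edgeR) in day 7 controls and 1.38 (0.40 to 2.36, adjusted p = 0.0153) in day 7 histotripsy-treated tumors. The second call rested on few libraries: without CD45- histotripsy-treated replicate 1 it was 0.99 (adjusted p = 0.109) and without replicate 2 it was 1.0 (adjusted p = 0.105). Without replicate 3, the library of that group with high values, it was 2.53, and Irgm1 (1.78, adjusted p = 0.0023) and Iigp1 (2.24, adjusted p = 0.00233) also passed. In day 7 histotripsy-abscopal tumors Igtp differed by 0.89 (adjusted p = 0.0600), and by 1.06 (adjusted p = 0.0408) without CD45- replicate 4. In that group all 4 same-numbered pairs of the fractions deviated together, and with the block the Igtp difference was 0.94 (adjusted p = 0.00353), a call that brings the members called there to 6.

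**Figure D2:**
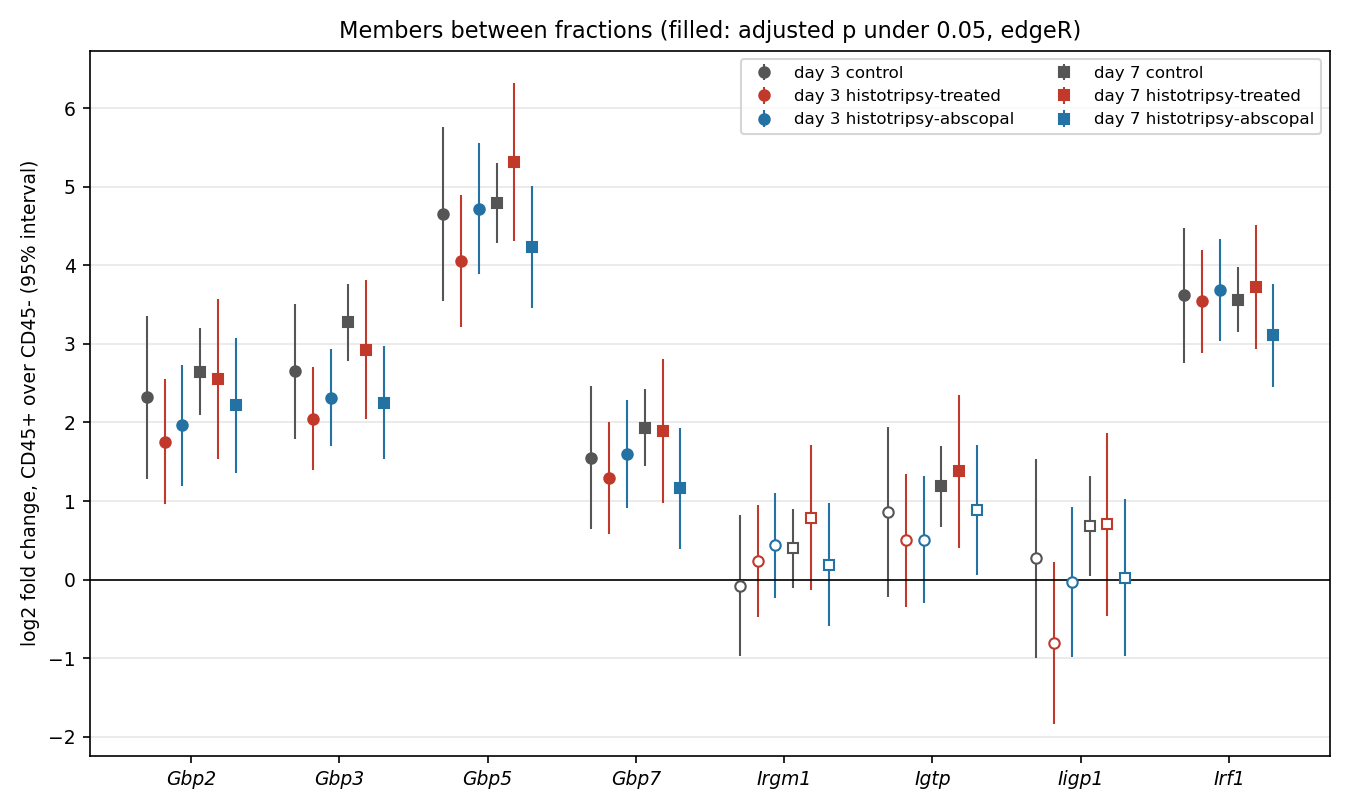
Log2 fold change of CD45+ over CD45- cells (vertical axis) for each tested member in each treatment group and day, with 95% intervals and filled points where the adjusted p was under 0.05. Within each group and day Gbp5 and Irf1 lie highest, from 3.11 to 5.32, and Irgm1 and Iigp1 lie around 0, from -0.80 to 0.79.

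The count of members that were higher in CD45+ cells was 5 of 8 in each treatment group on day 3, and on day 7 it was 6 in controls, 6 after histotripsy and 5 on the opposite side. The fractions are different cells, and most genes differed between them. Of all tested genes 34.5%, 39.9% and 39.8% were higher in CD45+ cells on day 3 (in the same order of groups) and 42.1%, 34.3% and 35.9% on day 7. In either direction 65.2%, 76.9% and 75.2% passed on day 3 and 80.4%, 65.6% and 69.5% on day 7. The members' median log2 difference was 1.52 to 2.29, against 0.013 to 0.052 over all tested genes.

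Ido1 (chr8:24584136-24597009, minus strand) had 0 counts in all 36 CD45- libraries, over 87525003 counts in total, for which a floor of 3 counts corresponds to 0.0343 CPM. In CD45+ cells it had 9 counts over 59030188, or 0.152 CPM. These 9 counts came from 8 of 34 libraries, of which 3 were day 7 controls and 5 were from day 3, and no library held more than 2. The gene did not pass the filter on low counts, so the main fits left it out and no group difference is given. The same depth gave 6838 counts of Ifng itself in CD45+ cells. CD45- cells gave 2 counts of Ifng, with 34 of 36 libraries at 0.

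The second comparison asked whether ablation changed these genes in the treated tumor or in the tumor opposite. No member passed the test in any of the 12 comparisons between treatment groups, with edgeR or with DESeq2, and in none of them were the 2 groups' ranges apart. Ranges of all other genes were not compared in this way. At an unadjusted p under 0.05, edgeR gave 3 of 8 members in CD45+ and 3 of 8 in CD45- cells, both between histotripsy-abscopal and control tumors on day 7, and 0 in the other comparisons. DESeq2 gave 3 and 1 of 8 for these, and 0 in the others. Over all genes these 2 comparisons gave 806 of 10817 (CD45+) and 1051 of 10996 (CD45-) with edgeR, and 718 and 903 with DESeq2. By the adjusted p the share of all genes called was small. In CD45+ cells on day 3 it was 7.79% for histotripsy-treated against control, 5.44% for histotripsy-treated against histotripsy-abscopal and 0% for histotripsy-abscopal against control. In CD45- cells it was 0.0916%, 0.147% and 0% for these on day 3. On day 7 it was 0.291% for histotripsy-abscopal against control in CD45- cells and 0% in each of the other 5 comparisons. The comparisons of a fraction and day share their control libraries.

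In CD45- cells on day 7 all 8 members read higher in histotripsy-abscopal tumors than in controls, and their median log2 difference was 0.78 against -0.0051 over all genes. Gbp3 showed the largest difference. It read 14.0, 11.8, 7.11 and 27.3 CPM in the 4 histotripsy-abscopal libraries, and 1.4 (lowest), 5.95 (median) and 11.4 CPM (highest) in the 11 controls. One of the abscopal values fell inside the range of the controls close to its middle, and 3 lay above that range. The log2 difference was 1.17 ± 0.42 (SE), with p = 0.0110 and adjusted p = 0.318 (edgeR), and from 0.79 to 1.42 with 1 library left out.

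Gbp2 read 56.3, 43.2, 39.8 and 67.3 CPM against 7.49, 21.0 and 52.8 CPM (lowest, median and highest control), a log2 difference of 0.91 ± 0.41 (adjusted p = 0.469, edgeR). Iigp1 read 162, 105, 74.0 and 152 CPM against 8.43, 48.7 and 130 CPM, a difference of 0.99 ± 0.49 (adjusted p = 0.532). Every abscopal library of both genes was above the control median, and the ranges overlapped. Gbp7 differed by 0.83 ± 0.37 (adjusted p = 0.472). The other members differed by 0.51 (Irf1), 0.59 (Igtp), 0.61 (Irgm1) and 0.74 (Gbp5), with adjusted p = 0.636, 0.668, 0.63 and 0.712. Without the filter on low counts 4 members passed the test (Gbp2, Gbp3, Gbp7 and Iigp1), where 1.39% of all genes did. The interval of Gbp3 ran from 0.34 to 2.0 and that of Gbp5 from -0.39 to 1.87, so neither little change nor a change of several fold is outside what these libraries allow.

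The fibroblast marker sum moved with this group. It was 2457, 1355, 69.0 and 431 CPM in the 4 CD45- histotripsy-abscopal libraries of day 7, and 15.5 to 676 CPM with a median of 55.1 CPM in the controls. The leukocyte marker sum stayed between 0.42 and 0.711 CPM in the abscopal group, with Ptprc at 0. The part of these cells in the members' difference was not tested.

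In histotripsy-treated tumors of day 7 the CD45- libraries did not form 1 level. Iigp1 read 25.3, 23.5 and 178 CPM, Igtp 26.3, 27.3 and 136 CPM, and Gbp2 16.9, 12.2 and 73.6 CPM. Replicate 3 was the high one for all 8 members and was also the one with a fibroblast marker sum of 3993 CPM, against 192 and 79.4 CPM in the others. The log2 differences from control ran from -0.32 (Gbp5, interval -1.80 to 1.16) to 0.38 (Gbp3, -0.63 to 1.4). Against histotripsy-abscopal tumors all 8 read lower, with a median of -0.73 and adjusted p = 0.807 to 0.852 (edgeR).

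In CD45- cells on day 3 the differences were small beside the spread. Iigp1, the member with the widest spread, read 53.7, 114, 91.8 and 50.8 CPM in controls and from 2.93 through a median of 105 to 242 CPM in histotripsy-treated tumors. The treated libraries reached both above and below all of the controls. The log2 difference was 0.53 (-0.74 to 1.80, adjusted p = 0.856, edgeR). The 8 members had a median log2 difference of 0.22 for histotripsy-treated and 0.091 for histotripsy-abscopal against control. With the replicate number as a block these turned to -0.27, with 0 of 8 members higher, and -0.34, with 1 of 8 higher. The directions thus depended on the model. That block ties control libraries to libraries of other mice by number alone. The members' intervals in the main fit reached at least 0.81 and at most 1.80 upwards in the treated comparison. Increases of up to that size are within what these libraries allow.

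In CD45+ cells on day 3, where the share of all genes called was highest, 6 of 8 members read lower in histotripsy-treated tumors than in controls, and their median was -0.21 against -0.0096 over all genes. Gbp5 read 108, 62.2, 31.3, 53.2, 106 and 31.7 CPM in the treated libraries against 115, 134, 77.2 and 77.6 CPM in controls, a log2 difference of -0.46 (-1.06 to 0.15, adjusted p = 0.39, edgeR). Iigp1 read 90.2, 26.7, 7.84, 33.8, 112 and 35.1 CPM against 96.2, 83.2, 74.6 and 78.0 CPM, a difference of -0.57 (-1.33 to 0.20, adjusted p = 0.404). For both genes replicates 1 and 5 were at the level of the controls and the other 4 treated libraries were below every control. Without the filter on low counts Iigp1 passed the test (-0.63, adjusted p = 0.0421), where 4.13% of all genes did. Irf1 went the other way, at 0.16 (-0.26 to 0.58), with 528, 554, 321, 311, 578 and 661 CPM in the treated libraries.

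The makeup of the CD45+ fraction differed in the same libraries. The neutrophil marker sum (6 genes) was 2005, 7671, 26503, 4128, 1272 and 4368 CPM in treated replicates 1 to 6 and 350 to 2672 CPM in controls. Replicates 1 and 5, with the highest Gbp5 and Iigp1, had the lowest neutrophil sums. Of 5 tested neutrophil markers 4 rose, and 3 of 7 T cell markers fell (edgeR). Replicate 3 had the highest neutrophil sum, the lowest NK cell marker sum (192 CPM, against 748 to 1286 CPM in the other 5) and the lowest level of 7 of the 8 members. Leaving out any 1 library of these groups called no member. The part of these cells in the members' levels was not tested.

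In CD45+ cells on day 7 all 8 members read higher in histotripsy-abscopal than in control tumors, by less than in CD45- cells (median 0.26 against -0.0095 over all genes). Irgm1 differed by 0.44 ± 0.18 (p = 0.0224, adjusted p = 0.612, edgeR), Gbp2 by 0.52 ± 0.23 (adjusted p = 0.659) and Iigp1 by 0.36 ± 0.17 (adjusted p = 0.666). Gbp2 read 232, 213, 212 and 135 CPM in the abscopal libraries and 94.0, 129 and 250 CPM (lowest, median and highest) in the controls, so that every abscopal library was inside the range of the controls. With the replicate block 7 of 8 members read higher, and 0 had an unadjusted p under 0.05, as 1321 of all 10817 genes did (edgeR). The neutrophil marker sum was 460.5 to 2039.9 CPM (median 1599) in the abscopal group and 1539 to 4960.3 CPM (median 2584) in controls. The B cell marker sum was 33.0 to 51.8 CPM against 41.1 to 175 CPM. The part of these cells in the members' levels was not tested. In histotripsy-treated tumors no difference from control exceeded 0.30. Whether a treatment difference was unequal in the 2 fractions was tested as an interaction, and no member passed for any of the 6 treatment comparisons, where 0% to 1.92% of all genes did. The shares were 1.92% and 1.52% for histotripsy-treated against control and against histotripsy-abscopal on day 3. The smallest p was for Gbp3, at -1.02 ± 0.45 (CD45+ minus CD45-, p = 0.0299, adjusted p = 0.488, edgeR), where 0.0233% of all genes passed.

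**Figure D3:**
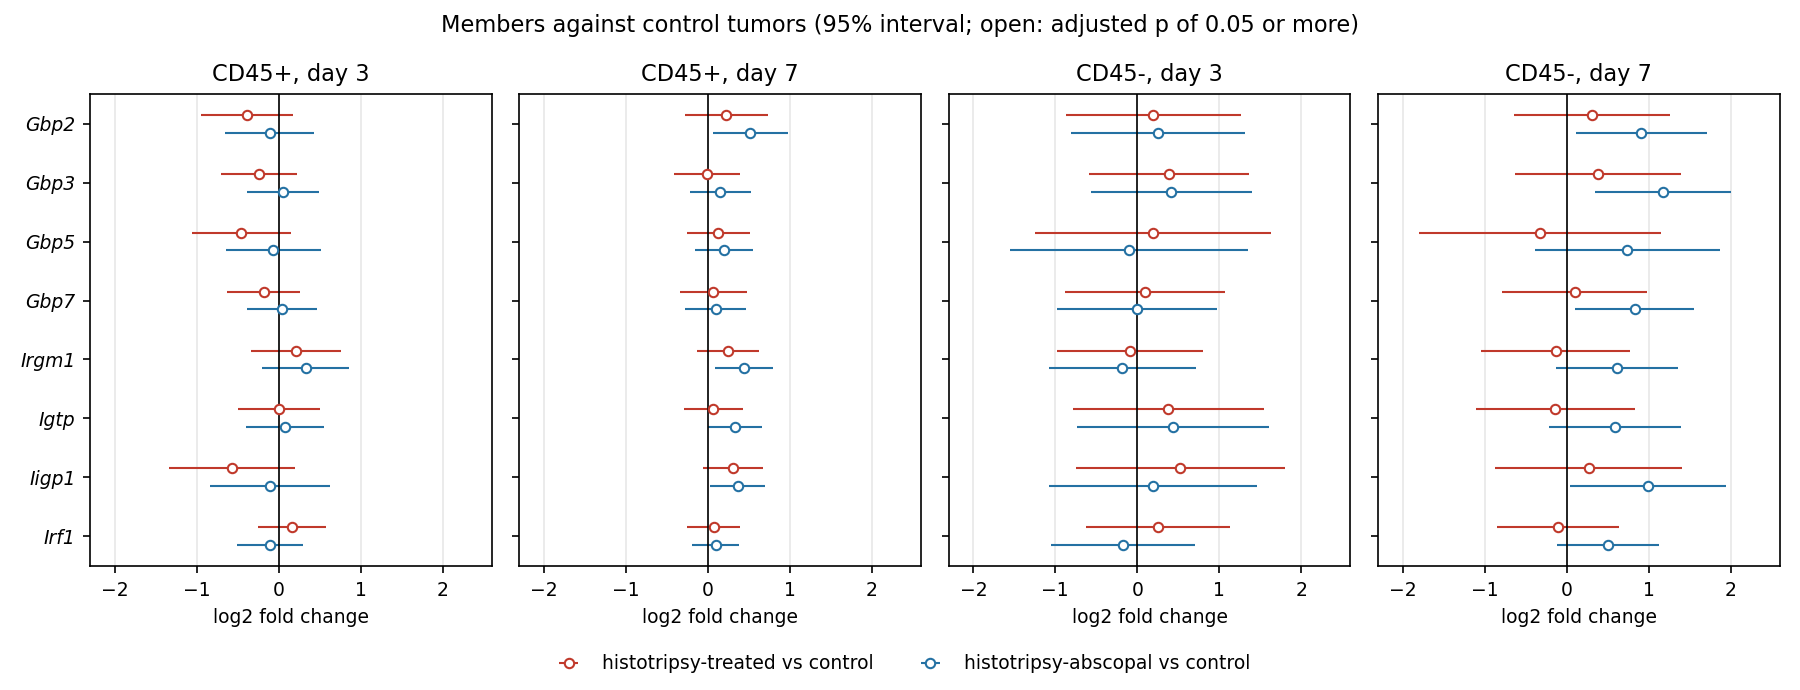
Log2 fold change against control (horizontal axis) for each tested member in histotripsy-treated and histotripsy-abscopal tumors, by fraction and day, with 95% intervals. All points are open because no adjusted p was under 0.05. The CD45- intervals are wider than the CD45+ intervals, and in CD45- cells on day 7 the histotripsy-abscopal points all lie above 0, from 0.51 to 1.17.

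Between the days no member passed the test in any group (edgeR and DESeq2). Day could not be told apart from anything else that differed between the 2 collections, such as a sequencing run. Iigp1 came closest, in CD45+ cells of histotripsy-treated tumors, where it read 113, 73.0 and 120 CPM on day 7 against the 6 values of day 3 given above. Its log2 difference was 0.92 ± 0.34 (p = 0.0107, adjusted p = 0.119, edgeR), where 4.14% of all genes passed. It passed the threshold without day 3 replicate 1 (1.13, adjusted p = 0.0485) or replicate 5 (1.27, adjusted p = 0.0150), the 2 treated libraries with the highest Iigp1. Iigp1 was the 1 member with an unadjusted p under 0.05 with edgeR, and DESeq2 gave 1 as well. Over all 11251 genes that comparison gave 2196 with edgeR and 2159 with DESeq2. No member passed a test of whether a treatment difference was unequal on the 2 days. The shares of all genes that did were 2.68% for histotripsy-treated against control, 0.0711% for histotripsy-treated against histotripsy-abscopal and 0% for histotripsy-abscopal against control in CD45+ cells, and 0%, 0.0173% and 0.00866% in CD45- cells. In the other groups the share of all genes called between days was 0.00889% (CD45+ control), 0.747% (CD45+ histotripsy-abscopal), 0% (CD45- control), 0.0433% (CD45- histotripsy-treated) and 0.026% (CD45- histotripsy-abscopal).

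In CD45- cells the members differed widely between libraries of the same group. Iigp1 ranged from 2.93 to 242 CPM over the 36 CD45- libraries, an 82.7-fold range, Gbp2 from 2.19 to 101 CPM and Igtp from 5.49 to 232 CPM. Both ends of each range came from day 3 histotripsy-treated tumors. Within groups the standard deviation of log2 CPM was 0.89 (Irf1) to 1.54 (Iigp1) in CD45- cells on day 3, against a median of 0.277 over all 10921 tested genes. Only 0.659% of these genes varied more than Iigp1, and 2.66% more than Irf1. On day 7 it was 0.68 to 1.20 against a median of 0.258, and 0.864% to 4.14% of genes varied more.

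CD45+ cells showed less of this. The standard deviation was 0.35 to 0.78 on day 3, where 3.4% of genes varied more than Iigp1 and 51.8% more than Irf1. On day 7 it was 0.25 to 0.46, where 25.1% to 76.4% of genes varied more than a member. Irf1 was the steadiest member in both fractions on both days.

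**Figure D4:**
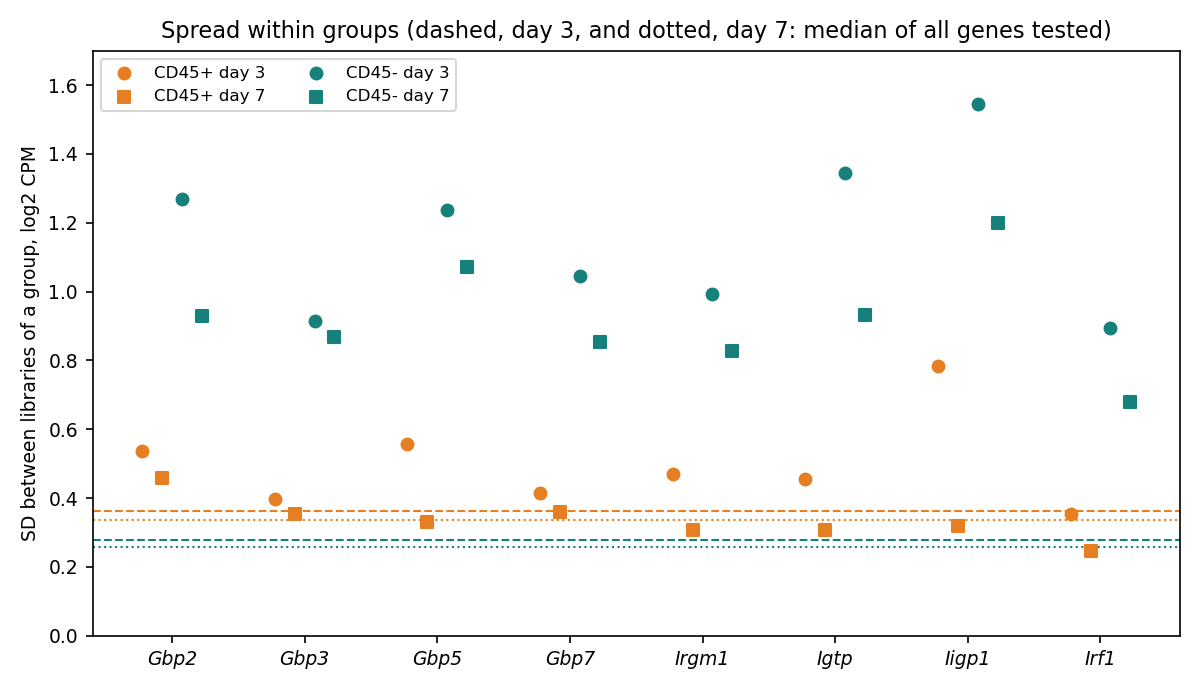
Standard deviation of log2 CPM between libraries of a group (vertical axis) for each tested member, by fraction and day, with lines at the median of all tested genes. CD45- points lie at 0.68 to 1.54, above the lines at 0.277 and 0.258, and CD45+ points of day 7 lie around their line at 0.338.

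The members moved as a block in CD45- cells. Each member's log2 CPM correlated with the mean of the other 7 at r = 0.89 to 0.98 over the 36 CD45- libraries. Over the 34 CD45+ libraries r was 0.74 to 0.87 for 7 members and 0.29 for Irf1. These libraries share groups, and correlations are given as a description. The lowest CD45- library was day 3 histotripsy-treated replicate 4, where the 8 members summed to 33.3 CPM, and the highest was replicate 6 of the same group, at 896 CPM. In replicate 4 Gbp5 had 0 counts, Iigp1 2.93 CPM and Igtp 5.49 CPM. Day 7 control replicates 10 and 11 were the next lowest, at 84.8 and 91.9 CPM, so low libraries were found with and without ablation.

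**Figure D5:**
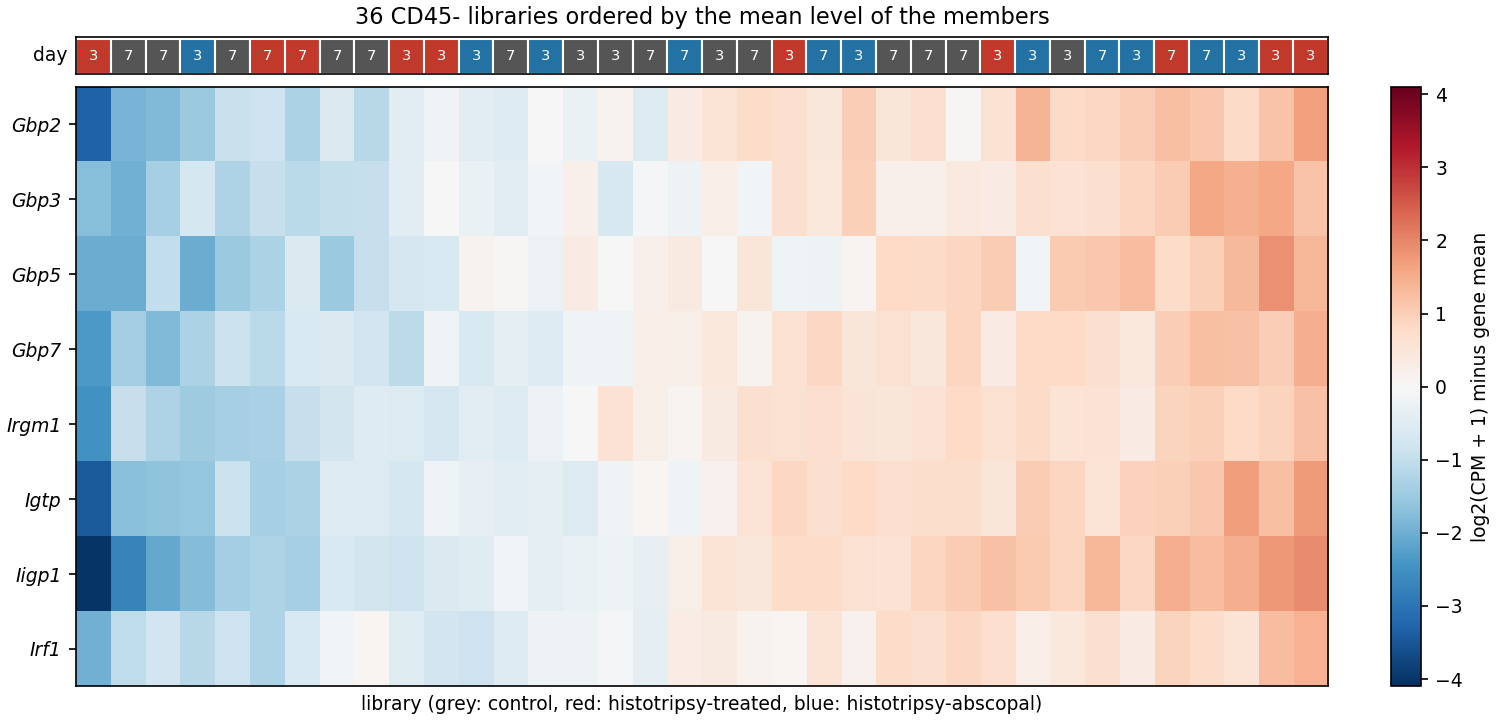
The 36 CD45- libraries in the order of their mean member level (horizontal axis) and the 8 tested members (vertical axis), colored by log2(CPM + 1) minus the gene's mean, with the group of each library marked. All rows change from low to high in the same order, and libraries of every treatment group are spread along it, with deviations of up to 4.01.

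Other measures moved with the mean member level within groups. Over the CD45- libraries the fibroblast marker sum gave r = 0.60 (rho = 0.52), and 0.44 without the 2 libraries farthest from its median. The melanoma marker sum gave r = -0.29, total counts r = -0.15 and the leukocyte marker sum, at most 1.48 CPM in any library, r = 0.081. Replicate 4 of the day 3 histotripsy-treated group had the lowest fibroblast sum of its group, 50.8 CPM. Replicate 3, with the highest fibroblast sum (13237.5 CPM), had the second highest member level of that group, and replicate 5, with 242 CPM, had member levels near the middle. The part of fibroblasts in the spread was not tested.

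Over the CD45+ libraries the mean member level moved with the NK cell marker sum at r = 0.81 (rho = 0.58), and with Ifng at r = 0.79 (rho = 0.60). With the neutrophil marker sum r was -0.70 (rho = -0.62). Without the 2 libraries farthest from the median of each measure these were 0.69, 0.70 and -0.54. The T cell marker sum gave r = 0.50 and 0.19 without 2 libraries, so that relation rested on those libraries. The leukocyte marker sum gave r = 0.69 and 0.60 without 2 libraries, and the B cell marker sum -0.50 and -0.48. Ifng read 22.3 CPM in the lowest CD45+ library of the day 3 histotripsy-treated group and 119 CPM in the lowest control of that day. Ifng passed the test in no comparison of treatment or day (lowest adjusted p = 0.384, edgeR).

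Genes most like the members were named by the correlation of their log2 CPM with the members' mean z-score. Over the 36 CD45- libraries and 11540 genes these included Tap1 (r = 0.97), Ifi47 (0.96), Tapbp (0.96) and Gbp4 (0.95). Tap1 and Tapbp encode the peptide transporter and tapasin of MHC class I loading, and Ifi47 and Gbp4 belong to the GTPase families of the members. Over the 34 CD45+ libraries and 11243 genes they included Gbp4 (0.86), Cxcl9 (0.83), Ifi47 (0.82) and Gbp8 (0.80). Gbp4 and Ifi47 were on both lists. Irgm2, whose exons overlap those of Igtp, was at 0.88 in CD45- and 0.30 in CD45+ cells.

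The remaining genes of the pathway were read from 7 lists. Between fractions all 3 tested of 7 further guanylate-binding protein genes were higher in CD45+ cells in all 6 groups. Gbp8 differed by 5.25 to 6.39 on the log2 scale, Gbp9 by 4.12 to 5.03 and Gbp4 by 2.01 to 3.12. Of 8 further immunity-related GTPase genes 6 were tested, and 2 were higher in 5 groups and 4 in day 7 controls. Ifi47 differed by 1.42 to 2.60 and Gm12250 by 1.45 to 2.85 in all 6 groups. Irgm2 (-0.52 to 0.93) and Tgtp1 (-0.53 to 1.12) each passed in 1 group, and counts of Tgtp1 are uncertain because Tgtp2 is nearly identical to it. In this family Ifi47 and Gm12250 were thus called higher in every group and Tgtp2 in none, and genes were not tested against each other.

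Of the ligand, receptor and signal genes 5 to 6 of 6 were higher in CD45+ cells. Ifngr1, the ligand-binding chain of the receptor, differed by 4.0 to 4.42, and Ifngr2, its signaling chain, by 0.53 to 1.0 with a pass in 4 of 6 groups. Jak1 differed by 2.09 to 2.3 and Jak2 by 2.43 to 2.94. In CD45- cells the receptor was thus read at a lower level but present: in day 7 controls Ifngr1 averaged 31.6 CPM, against 533 CPM in CD45+ cells. All 9 transcription factor genes were higher in CD45+ cells, with Irf8, a factor of myeloid cells, at 5.39 to 5.91 and Ciita, the activator of MHC class II, at 5.56 to 6.76. So were all 6 negative feedback genes, with Socs1 at 2.81 to 4.53 and Ptpn6 at 3.20 to 3.70.

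Of 9 chemokine and effector genes 8 were higher in CD45+ cells in each group. Cd274, which encodes PD-L1, differed by 3.98 to 4.53 and Cxcl9, a chemokine for activated T cells, by 2.96 to 6.32. Of 10 genes of tryptophan and kynurenine metabolism 7 were tested. Kmo, Kynu and Haao, enzymes downstream of Ido1, were higher in CD45+ cells, by 8.50 to 9.95, 4.29 to 6.72 and 2.48 to 3.44. Kyat3 and Kyat1, the kynurenine aminotransferases, read lower, by -1.88 to -1.01 with a pass in 6 of 6 groups and by -1.84 to -0.38 with a pass in 3. Slc7a5, an amino acid transporter that carries tryptophan, was lower, by -2.57 to -1.64. In all, 4 genes of this list were higher and 2 to 3 lower in a group.

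Between treatment groups and days 2 genes of the 7 lists passed. Cxcl9 was higher in CD45- cells of histotripsy-abscopal than control tumors on day 7, by 3.51 ± 0.69 (adjusted p = 0.0282, edgeR), with 1.07 to 106 CPM (median 20.9) against 0 to 12 CPM (median 2.5). The ranges overlapped, and with the replicate block 0 of 10996 genes passed in that comparison. Acod1, the itaconate-producing enzyme of activated myeloid cells, was higher in CD45+ cells of histotripsy-treated tumors on day 3, by 2.48 against control (adjusted p = 0.0021) and by 1.80 against histotripsy-abscopal tumors. It read 824 to 4720 CPM there and 399 to 621 CPM in controls, and was lower on day 7 than on day 3 in treated tumors, by -2.13 (adjusted p = 0.0118). As a test of the difference between days in the effect of treatment on CD45+ cells, Acod1 (-2.70, adjusted p = 0.0159) and Irf8 (0.71, adjusted p = 0.0411) passed, where 2.68% of all genes did. Ifngr1 and Ifngr2 passed in none of these comparisons (lowest adjusted p = 0.313 and 0.396), nor did Socs1, which differed by 1.73 (p = 0.00317, adjusted p = 0.183) in CD45- cells of histotripsy-abscopal tumors on day 7.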

How the data were processed

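RNA was measured by QuantSeq in 70 libraries of sorted tumor cells. The authors trimmed reads with Trim Galore 0.5.0, aligned them to GRCm38 with STAR 2.6.0, collapsed unique molecular identifiers with a Lexogen QuantSeq tool (2.3.6), counted them with featureCounts and deposited the counts per gene without normalization, in a table for each fraction and day. Per the labels, libraries were grouped by fraction, day and treatment. Each table has 55487 gene lines, 120 of which share a symbol with another. A line of column totals in the CD45+ tables was left out.

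The counts were tested with edgeR 4.0.16 in R 4.3.3: TMM scaling, filterByExpr (minimum count 10, minimum total 15), quasi-likelihood tests across all genes and Benjamini-Hochberg adjustment, with a threshold of 0.05. Treatments were compared in a fit per table, fractions in a fit of both tables of a day, and days in a fit of both tables of a fraction. Intervals are the log2 fold change ± 1.96 SE. CPM used library totals. Of the 9 members 8 passed the filter. Scripts were tested on simulated data. Alternatives were DESeq2 1.42.0, library totals, no filter, a replicate block and each library left out in turn. Same-numbered libraries deviated together (correlation over 0.1) in 9 of 17 pairs between fractions on day 3 and in 8 of 17 on day 7. Among the groups compared, all pairs did so only between the fractions of day 7 histotripsy-abscopal tumors, so the block was kept as an alternative. In day 3 histotripsy-treated tumors and day 7 controls the fractions hold unequal numbers of libraries. Same-numbered libraries there may not be of the same tumor. Intervals and floors cover counting or replicate error only.

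The members, the marker and pathway lists and the tests were chosen with earlier results of these data known. Named genes are the members, up to 4 called genes with the smallest p per list (a selection is given), Ifng, Ifngr1, Ifngr2 and Socs1 throughout, and the 5 genes most like the members in each fraction, of which 4 are given. A gene that the rule also names is not reported here. Tgtp2 and the genes named for an overlap with a member are outside this rule. Coordinates are from GENCODE for GRCm38, and promoters from RefSeq for GRCm38.p6.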

Additional observations from a re-analysis of the deposited data

Results flagged for a closer look

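Of 72 sets of a member and a group of 4 to 10 libraries, 1 held a library far from the others. Irgm1 in CD45+ cells of histotripsy-abscopal tumors on day 7 read 28.4 CPM in replicate 2, against 38.6 to 40.2 CPM in the other 3 libraries. The gap was 0.864 of the group's range, above Dixon's critical value of 0.829 for 4 values. Chance flags about 1 in 20 such sets, and here it was 1 of 72. The control libraries of that day and fraction read 21.2 to 38.0 CPM.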

How the results depend on the processing

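Counts of members called were within 1.5 times the reported count in 116 of 120 results under the other settings and in 278 of 280 with 1 library left out. The exceptions followed from 0. Without the filter on low counts 1 member was called in CD45+ cells on day 3 (histotripsy-treated against control), 4 in CD45- cells on day 7 (histotripsy-abscopal against control) and 1 in CD45+ histotripsy-treated tumors between days. Of all genes 4.13%, 1.39% and 2.29% were called in these comparisons without the filter. A replicate block also called 1 member in the last of these, and 5% of all genes, and leaving out 1 library there gave 0 to 1 members. Replicate numbers were not taken to pair the samples between treatment groups, since controls are other mice and the labels name no shared animal. The correlation was over 0.1 in 7 of 14, 3 of 10, 8 of 15 and 2 of 10 pairs between treatment groups (CD45+ day 3 and 7, CD45- day 3 and 7). Most of these pairs hold a control library, so the counts cannot show whether treated and abscopal libraries of a number share an animal. With the block the Iigp1 difference between days was 1.16 (adjusted p = 0.0394, edgeR). Between fractions on day 7 the block called 7 (control), 8 (histotripsy-treated) and 6 (histotripsy-abscopal) of 8 members, against 6, 6 and 5. Of all genes 42%, 34.6% and 35.9% were called higher in CD45+ cells with the block. The block turned the members' median in CD45- cells on day 3 to -0.27 (histotripsy-treated) and -0.34 (histotripsy-abscopal against control). In CD45+ cells on day 3 library totals left 1 of 8 members higher in histotripsy-abscopal tumors than in controls, against 4. Signs of named differences between fractions also turned. With library totals Irgm1 was -0.14 in day 3 histotripsy-treated and -0.066 in day 7 histotripsy-abscopal tumors, and Iigp1 -0.23 in the latter. Iigp1 was -0.086 there without the filter, and 0.13 in day 3 histotripsy-abscopal tumors with the block. With 1 library left out Irgm1 ran from -0.19 to 0.017 in day 3 controls, and Iigp1 from -0.21 to 0.22 and from -0.17 to 0.24 in histotripsy-abscopal tumors on days 3 and 7. Library totals moved the median of all genes between fractions to between -0.14 and -0.39. The cause of these changes was not tested. Counts of Gbp5 in CD45- libraries and of Ido1 were limited by depth.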
